A study of Mus musculus with 32 samples.

Results

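Mouse C2C12 myoblasts carrying Sir2 were compared with C2C12 myoblasts carrying the empty vector after 12 h in differentiation medium (DM in the array titles). The members were chosen by the titles of the arrays: 3 arrays of cells with pHan carrying Sir2 (Sir2) and 3 arrays of cells with pHan alone (vector), which are 6 of the 32 Affymetrix arrays of the series. Another 6 arrays of the same arm held Sir2 and vector cells at 36 h, and the remaining arrays belonged to a separate arm of control and TSA-treated C2C12 cells. C2C12 is an established mouse line of muscle precursor cells that leaves the cell cycle and fuses into contractile myotubes when serum is withdrawn. Both groups were cells of this 1 line and both carried pHan. The labels give neither the Sir2 sequence that was transferred nor the number of clones or pools behind the arrays. They do not say that the 3 replicates of a group came from separate cultures, so p-values measure the spread between these samples, which may be technical.

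Sir2 is a yeast deacetylase that consumes NAD, and its closest mouse relative is Sirt1. In muscle cells Sirt1 is known to bind the acetyltransferase PCAF (Kat2b) and the muscle determination factor MyoD and to hold back the muscle programme. MyoD and myogenin (Myog) bind E-boxes, short DNA motifs of the form CANNTG in which CAGCTG is a form favoured by both, and with the MEF2 factors they switch on the genes of the sarcomere, of calcium handling and of muscle energy supply. Entry into that programme is coupled to exit from the cell cycle through Rb1 and the cyclin-dependent kinase inhibitors Cdkn1a and Cdkn1c.

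After 12 h the Sir2 cells had lower RNA for part of the contractile genes (18 of 31 tested), of the calcium-handling genes (10 of 17) and of the muscle energy genes (5 of 16). They had higher RNA for cyclin D1, for part of the DNA replication genes (11 of 35) and for part of the immediate early genes of growth signalling (7 of 22). Of 7453 probe sets tested, 414 passed an adjusted p of 0.05 (5.55% of those tested; limma, Benjamini-Hochberg), 207 higher and 207 lower in Sir2 cells, and 1344 passed an unadjusted p of 0.05. With 1 probe set per gene, 170 of 5621 genes were higher (3.02%) and 167 were lower (2.97%). Among the called genes 32 had a log2 change of 1 or more and 39 a change of -1 or less. The median log2 change over all genes tested was 0.01. The 3 Sir2 and 3 vector arrays did not overlap for 1356 of the 5621 genes (24.1%), and for 335 of the 337 called genes, so that groups without overlap are the rule among called genes. Log2 changes here are Sir2 minus vector on the scale of log2(intensity + 8.82), which compresses the change of dim probe sets, and values after ± are SE for log2 changes and SD for intensities. These are bulk samples, so fewer cells of a kind and less RNA per cell cannot be told apart.

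**Figure D1:**
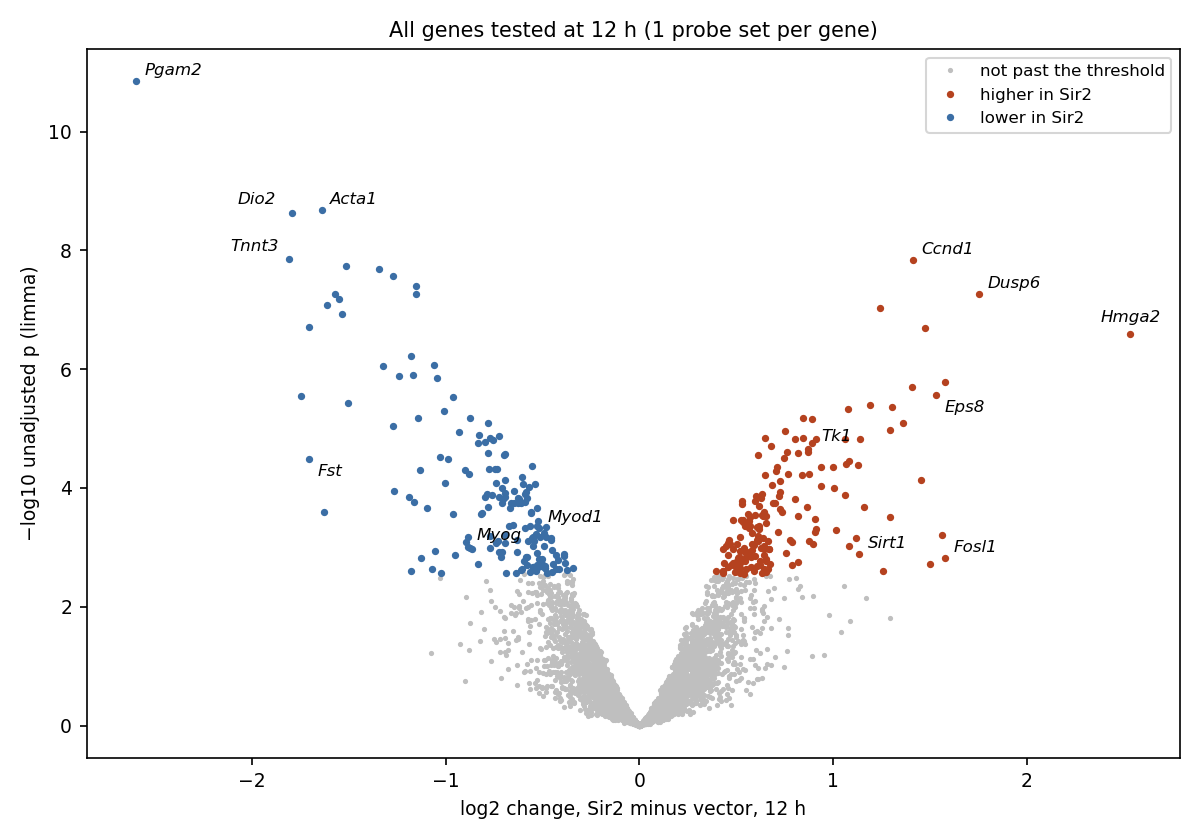
Log2 change at 12 h, Sir2 minus vector (x axis), against the unadjusted limma p on a -log10 scale (y axis), with 1 point per gene tested. The 170 higher and 167 lower genes are coloured, and Pgam2 and Hmga2 stand at the far ends of the x axis.

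The trimmed mean intensity was 150.1 on all 12 arrays of the arm, and array medians ran between 50.4 and 57.6. Sir2 replicate 3 had a Spearman correlation over probe sets of 0.970 with vector replicate 2, against 0.967 with each of the other Sir2 arrays, and its deviations from the group mean ran with those of vector replicate 2 (r = 0.391). Without these 2 arrays 246 probe sets passed, 118 higher and 128 lower. The 11 array measures (scale, 3′ to 5′ ratios of Gapdh and Actb, summed marker intensities) had adjusted p of 0.943 or more in exact permutation tests. With 3 arrays against 3 the smallest possible unadjusted p is 0.1, so none of these measures could have passed. Skeletal muscle and myoblast markers were well represented, with Myod1, Cdh15, Actc1 and Myog averaging 986, 1325, 1392 and 1321 over the 6 arrays. The defining leukocyte markers were dim, Ptprc averaging 2.95 over the 6 arrays, Lyz2 3.12, Tyrobp 5.77, Adgre1 6.90 and Cd68 25.3. Of the defining endothelial markers Cdh5 averaged 2.43, Tie1 5.09 and Pecam1 25.4. The endothelial receptor gene Kdr had 48.6, 27 and 16.3 in Sir2 cells and 8.89, 5.65 and 10.7 in vector cells, without overlap but below the filter, so that it was not tested. The summed endothelial marker intensity was 184 to 334 in Sir2 cells and 179 to 252 in vector cells. The adipocyte markers had a summed intensity of 1915 to 2152 in Sir2 cells and 1545 to 1601 in vector cells, fully apart (exact permutation p = 0.1, adjusted p = 0.943). That sum includes Plin2, which is bright (mean of 726 over the 12 arrays) and had a log2 change of 0.61. The gap in the sum therefore does not by itself show that all markers rose. Plin2 was the 1 called gene of 7 tested adipocyte markers, of which 6 had a positive log2 change and 1 a negative one (median 0.23). Among their defining markers Pparg had 38.3, 32.3 and 42.1 in Sir2 cells and 24.2, 27.4 and 20.3 in vector cells, apart as well, while Adipoq averaged 12.6 and Fabp4 9.56, and all 3 were below the filter. The part of such cells in the results was not tested.

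Sirt1 was read out by 1 dim probe set. Its intensity was 37.5, 48.7 and 39.9 in Sir2 cells, against 20.3, 9.48 and 14.2 in vector cells. The groups did not overlap, and the log2 change was 1.14 ± 0.27 (adjusted p = 0.0316, limma). It was 1.43 with the added constant at the 5th percentile of the intensities and 0.69 with it at the 40th. The call was lost when probe sets were not filtered (adjusted p = 0.0743), without Sir2 replicate 1, 2 or 3 (0.0702, 0.109 and 0.0666) and without vector replicate 2 or 3 (0.104 and 0.0962), and without Sir2 replicate 3 and vector replicate 2 together (0.168). At 36 h Sirt1 had a log2 change of 0.77 ± 0.27 (adjusted p = 0.106). Whether this probe set lies within the transferred sequence is not known here, so it checks the labels only in part. The other 13 tested genes of the sirtuin and deacetylase list had no call, and among 11 genes of NAD metabolism none passed in either direction.

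The promoters of the lower genes carried the CAGCTG E-box in a larger share than those of all genes tested. RefSeq promoter windows of GRCm38.p6, which run from 250 bases before to 50 bases after the start site, were matched to 130 of the 167 lower genes, and 47 of these 130 (36.2%) held CAGCTG in at least 1 window. The share was 30 of 134 higher genes (22.4%), 797 of 4562 genes tested (17.5%) and 5355 of all 32851 windows (16.3%). The looser form CANNTG, which includes every CAGCTG, was present in 71.5% of the lower genes, 70.9% of the higher genes and 66.5% of the genes tested and 72.3% of all windows. Both motifs read the same on either strand. A match is a description of the letters in the window and not a site of binding. Among the strongly lower genes, stretches around CAGCTG (in capitals) are shown for Pgam2 at chr11:5803889-5803948 on the minus strand, Acta1 at chr8:123894964-123895023 on the minus strand, Mybph at chr1:134193342-134193401 on the plus strand, and Srpk3 at chrX:73774292-73774351 on the plus strand.
Pgam2: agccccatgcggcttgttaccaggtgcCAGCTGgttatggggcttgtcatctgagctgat
Acta1: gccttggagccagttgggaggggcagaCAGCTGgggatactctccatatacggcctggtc
Mybph: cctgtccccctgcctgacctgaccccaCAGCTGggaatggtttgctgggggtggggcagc
Srpk3: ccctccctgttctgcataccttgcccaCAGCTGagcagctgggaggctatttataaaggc
The motif begins 125 bases before the annotated start in Pgam2, 221 bases before it in Acta1 and 79 bases before it in Mybph. In Srpk3 it begins 86 bases before the start and again at 78 bases, where it is in lower case. That Srpk3 start site lies within the annotated span of the gene. Among the 18 lower sarcomere genes 15 had a window and 6 of them (40%) held CAGCTG.

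Contractile genes were the group with the most calls. Of 31 tested sarcomere genes 18 were lower and none was higher, 29 had a negative log2 change, and their median was -0.87, beside 0.01 over all genes. Acta1, the actin of skeletal muscle, had intensities of 473, 521 and 504 in Sir2 cells and 1600, 1642 and 1486 in vector cells. The Sir2 arrays lay close together and far below the vector arrays, with a log2 change of -1.64 ± 0.10 (adjusted p = 4.33e-06) and a ratio of mean intensities of 0.317. Tnnt3, fast troponin T, gave 32.3, 40 and 45.8 in Sir2 cells and 166, 146 and 166 in vector cells (log2 change -1.81 ± 0.13, adjusted p = 1.37e-05). Tnnc1, the troponin C of slow and cardiac muscle, gave 140, 171 and 179 in Sir2 cells and 522, 532 and 493 in vector cells (-1.61 ± 0.14, adjusted p = 3.66e-05). In both troponins the lowest vector array was well above the highest Sir2 array.

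Myosin genes of the embryonic and adult fast kinds were also lower. Myh3, embryonic myosin heavy chain, had 33.1, 31.7 and 38.2 in Sir2 cells and 97.4, 100.4 and 103.8 in vector cells (log2 change -1.34 ± 0.10, adjusted p = 1.52e-05). Myh1, an adult fast heavy chain, stood at 16.4, 11.2 and 18 in Sir2 cells and 55.2, 79.1 and 74.9 in vector cells (-1.70 ± 0.16, adjusted p = 6.77e-05). The groups of Myh3 did not overlap. Myh1 was named by the size of its change, for which groups without overlap were a condition. The Myh1 change was -2.04 and -1.13 with the constant at the 5th and 40th percentile. Actc1, the cardiac actin that embryonic skeletal muscle also uses, fell by 1.15 on the log2 scale, and its second probe set had a change of -2.12. Mybph, a myosin-binding protein, had a log2 change of -1.55 ± 0.13 and the essential light chain gene Myl1 one of -1.06 ± 0.11, both past the threshold. The other lower members were Tnni1, Tnnt1, Tnnt2, Tnnc2, Myl4, Myl6b, Myom2, Actn3, Tpm2 and Ldb3, with log2 changes between -1.24 (Tnnt1) and -0.63 (Tpm2). Des, the intermediate filament protein desmin, gave 369, 289 and 348 in Sir2 cells and 328, 352 and 382 in vector cells and had no call (-0.08 ± 0.13, adjusted p = 0.824). Mylpf, a fast regulatory light chain, had -0.19 ± 0.18 (adjusted p = 0.669), while its second probe set passed at -0.69 (adjusted p = 0.0115). Leaving out any 1 array, or Sir2 replicate 3 with vector replicate 2, gave between 16 and 19 lower sarcomere genes.

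**Figure D2:**
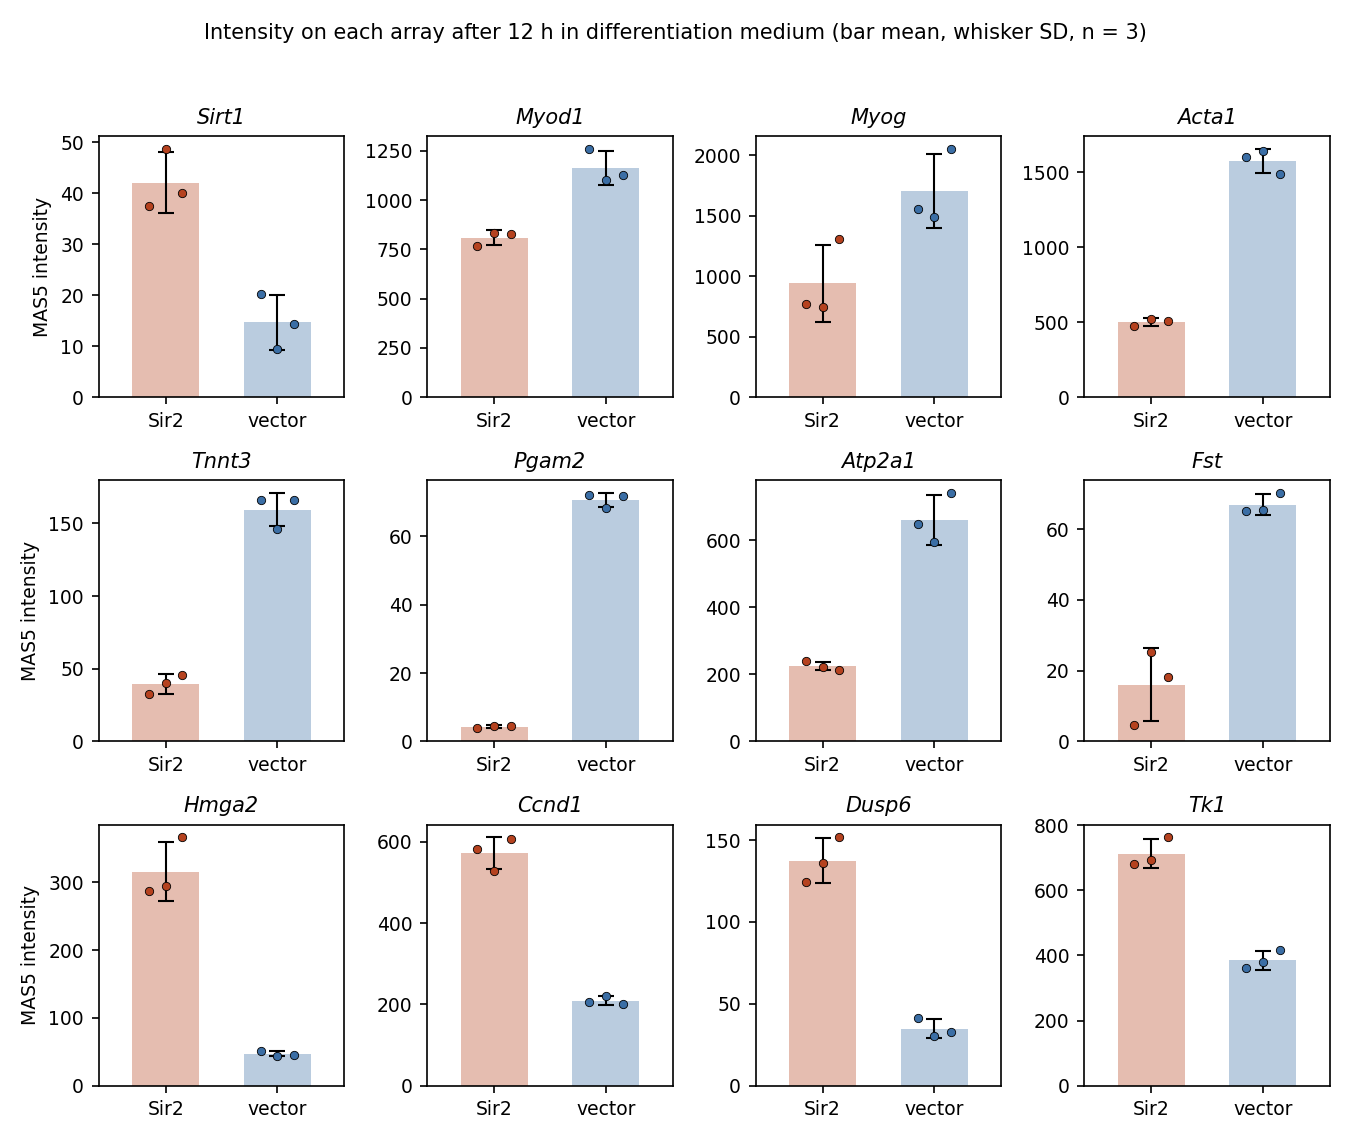
MAS5 intensity (linear y axes from 0) on each of the 3 Sir2 and 3 vector arrays at 12 h for 12 genes, with bars for the mean and whiskers for SD. Sir2 and vector arrays do not overlap for any of the 12, as for 335 of the 337 called genes: Acta1 is 473 to 521 in Sir2 cells and 1486 to 1642 in vector cells, and Ccnd1 is 529 to 606 in Sir2 cells and 200 to 221 in vector cells.

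Of 17 tested genes of excitation-contraction coupling 10 were lower and none was higher (median log2 change -0.57, 15 negative). Atp2a1, the calcium pump of fast sarcoplasmic reticulum, had 239, 222 and 213 in Sir2 cells against 650, 593 and 741 in vector cells (log2 change -1.52 ± 0.12, adjusted p = 1.52e-05). Ryr1, the calcium release channel of skeletal muscle, had 79.6, 74.3 and 103 in Sir2 cells against 183, 230 and 244 in vector cells (-1.27 ± 0.17, adjusted p = 0.0013). For both genes the highest Sir2 array stayed below the lowest vector array. Cacna1s, the voltage sensor of the T-tubule, had a change of -1.10. Lower calls also fell on Atp2a2, Ryr3, Cacng1, the fetal acetylcholine receptor subunit Chrng (-0.78 ± 0.12), the subunits Chrna1 (-0.43) and Chrnb1 (-0.45), and Rapsn (-0.62), which clusters that receptor. In a fit of the 6 arrays of 12 h alone 5 of the 17 passed, and without vector replicate 3, 6 passed.

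Muscle energy genes were lower in part. Pgam2, muscle phosphoglycerate mutase, had the largest change among them and was read at 3.92, 4.60 and 4.44 in Sir2 cells, against 72, 68.3 and 71.8 in vector cells. The Sir2 values lay below the constant of 8.82 added before taking logs, and the log2 change on that scale was -2.60 ± 0.11 (adjusted p = 1.07e-07). That size depends on the constant, being -3.46 with the 5th percentile and -1.54 with the 40th. At the 40th percentile the adjusted p was 7.69e-07 for Pgam2 and 6.22e-07 for Acta1. Pygm, muscle glycogen phosphorylase, gave 90.6, 90.1 and 95.3 in Sir2 cells and 217, 210 and 218 in vector cells (-1.15 ± 0.10, adjusted p = 2.75e-05), again without overlap. Mb (myoglobin, -1.63 ± 0.32, adjusted p = 0.0108), Cox6a2 (the muscle form of a cytochrome oxidase subunit, -1.18) and Ckm (muscle creatine kinase, -1.06 ± 0.25, adjusted p = 0.0288) were lower as well. A second Ckm probe set showed -0.13 (adjusted p = 0.904). The Mb call was lost without vector replicate 3 (adjusted p = 0.0552), and the Ckm call without Sir2 replicate 2 or 3 or vector replicate 1 or 3 (0.0724 to 0.119). With the 6 arrays of 12 h alone both calls were lost (0.0642 for Mb and 0.1026 for Ckm). The Ckm call was also lost with no filter (0.069) and without Sir2 replicate 3 and vector replicate 2 together (0.1265). In all, 5 of 16 tested genes of muscle metabolism were lower and none was higher (median -0.31). Among general energy genes, none of 29 of oxidative phosphorylation and the PGC-1 pathway (median -0.03) and none of 20 of fatty acid oxidation (median -0.00) were called. Of 22 of glycolysis 1 was called, Pfkp, which was higher (0.43). Over all genes tested 3.02% were higher and 2.97% lower, so counts this low do not set these lists apart.

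Among the 12 tested myogenic factors 3 were lower, none was higher, and the median was -0.17. Myod1 had 765, 833 and 830 in Sir2 cells and 1261, 1100 and 1127 in vector cells, a log2 change of -0.52 ± 0.11 (adjusted p = 0.0164). Myog, which drives terminal differentiation, had 768, 745 and 1310 in Sir2 cells and 1558, 1492 and 2055 in vector cells (-0.88 ± 0.20, adjusted p = 0.026). Neither gene had overlapping groups, although Sir2 replicate 3 came near the vector arrays for Myog. The Myod1 call was lost in a fit of the 6 arrays of 12 h (adjusted p = 0.0617) and without Sir2 replicate 1 or vector replicate 1 (0.0732 and 0.0652). The Myog call was lost in the same fit (0.107), with no filter (0.0645) and without Sir2 replicate 1 or 2 or vector replicate 1 or 3 (0.101, 0.106, 0.0522 and 0.115). Mef2a, a partner of MyoD, gave 640, 579 and 763 in Sir2 cells and 1010, 1131 and 1066 in vector cells (-0.69 ± 0.13, adjusted p = 0.00746), and -0.25 on its other probe set (adjusted p = 0.76). Mef2d (-0.44 ± 0.13, adjusted p = 0.0668), Mef2c (-0.50 ± 0.31, adjusted p = 0.447) and Myf5 (0.13 ± 0.17, adjusted p = 0.771) had no call. Kat2b, the PCAF acetyltransferase, had 142, 138 and 137 in Sir2 cells and 143, 174 and 135 in vector cells, with overlapping groups and a log2 change of -0.10 ± 0.14 (adjusted p = 0.797).

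Known inhibitors of myogenesis moved little as a group, with 2 of 17 tested genes higher, 1 lower and a median of 0.08. Id1, which binds the partners of MyoD, gave 153, 142 and 180 in Sir2 cells and 124, 115 and 86.6 in vector cells (0.52 ± 0.14, adjusted p = 0.049). Its groups did not overlap, and its call was lost under most alternatives and with most arrays left out. Snai2, a repressor that competes for E-boxes, was higher (0.56 ± 0.12, adjusted p = 0.0164), a call lost without Sir2 replicate 1 or 2 or vector replicate 3 (0.0673 to 0.0756). Id2 (0.67 ± 0.20, adjusted p = 0.0749) and Id3 (0.13 ± 0.18, adjusted p = 0.793) had no call. Zeb1, another E-box repressor, was lower on 1 probe set (-0.77 ± 0.11) and had 0.20 on the other (adjusted p = 0.703).

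Genes of the muscle surface gave mixed directions. Of 17 tested genes of fusion and adhesion 5 were lower and 1 was higher (median -0.27), and of 10 tested genes of the dystrophin complex 2 were lower, Sntb1 (syntrophin, -0.88 ± 0.15) and Sgca (sarcoglycan, -0.71 ± 0.13). Ncam1, a neural cell adhesion molecule made by differentiating myoblasts, had 471, 444 and 499 in Sir2 cells and 737, 788 and 833 in vector cells (-0.73 ± 0.10, adjusted p = 0.00164). Cdh15, M-cadherin, stood at 1048, 1082 and 1109 in Sir2 cells and 1521, 1585 and 1607 in vector cells (-0.54 ± 0.09, adjusted p = 0.0054). Vcam1, an adhesion molecule of myoblasts, went the other way, with 447, 501 and 476 in Sir2 cells and 286, 297 and 248 in vector cells (0.76 ± 0.11, adjusted p = 0.00236). The groups were apart in all 3 genes. Cd82, Cav3 (caveolin of muscle) and Jam3 were the remaining lower members. The second probe sets of Ncam1 and Cd82 had -0.42 and -0.25 and did not pass.

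Cyclin D1 was higher in Sir2 cells. Its gene Ccnd1, which drives passage through G1 and falls when myoblasts differentiate, had 581, 529 and 606 in Sir2 cells, against 205, 221 and 200 in vector cells. Its log2 change was 1.41 ± 0.11 (adjusted p = 1.37e-05), and a second probe set gave 1.42. Of 20 tested genes of cell cycle exit 2 were higher (Ccnd1 and the pocket protein gene Rbl1, at 0.91) and 5 were lower (median -0.12). Cdkn1a, which encodes p21, had 698, 813 and 766 in Sir2 cells and 1137, 1109 and 1233 in vector cells (-0.61 ± 0.10, adjusted p = 0.00434), without overlap, but its other probe set had 0.11 (adjusted p = 0.837). Rb1, the retinoblastoma protein gene, had a log2 change of -0.73 ± 0.16 (adjusted p = 0.0226) and Cdkn1c, which encodes p57, one of -0.57 ± 0.15 (adjusted p = 0.0478). Both calls were lost without Sir2 replicate 1 or 2 or vector replicate 2 or 3 (adjusted p of 0.0782 to 0.0828 for Rb1 and 0.133 to 0.171 for Cdkn1c). The growth arrest genes Gadd45b (-0.79 ± 0.14) and Gadd45g (-0.58 ± 0.11) were lower too, with second probe sets of Gadd45b and Rb1 at -0.28 and -0.45 and no call. Ccnd3, the cyclin D that rises in myotubes, had -0.44 ± 0.14 (adjusted p = 0.113).

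Among DNA replication genes 11 of 35 tested were higher and none was lower (median 0.39, 33 positive). Tk1, thymidine kinase, gave 682, 693 and 763 in Sir2 cells and 360, 379 and 418 in vector cells (0.87 ± 0.13, adjusted p = 0.00221). Mcm4, a subunit of the replicative helicase, gave 424, 402 and 418 in Sir2 cells and 245, 250 and 237 in vector cells (0.74 ± 0.12, adjusted p = 0.0027). Neither gene had overlapping groups. The others were Rfc4 (clamp loader, 0.75 ± 0.10), Top2a, Mcm3, Mcm5, Pcna, Fen1, Cdt1, Slbp and Uhrf1. Among mitosis genes 11 of 37 tested were higher and none was lower (median 0.44, 35 positive), among them Cks2 (0.60 ± 0.12), the condensin subunit gene Ncaph (0.64 ± 0.13), Kif23 (0.66 ± 0.13) and Prc1 (0.54 ± 0.11), both of the midzone of the spindle. These counts depended on the arrays used. With the 6 arrays of 12 h alone, 4 replication and 2 mitosis genes passed. Without Sir2 replicate 3 and vector replicate 2, 6 and 2 passed. Leaving out Sir2 replicate 1 gave 7 and 5, Sir2 replicate 2 gave 7 and 2, Sir2 replicate 3 gave 9 and 5, vector replicate 1 gave 7 and 7, vector replicate 2 gave 10 and 9, and vector replicate 3 gave 4 and 2.

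**Figure D3:**
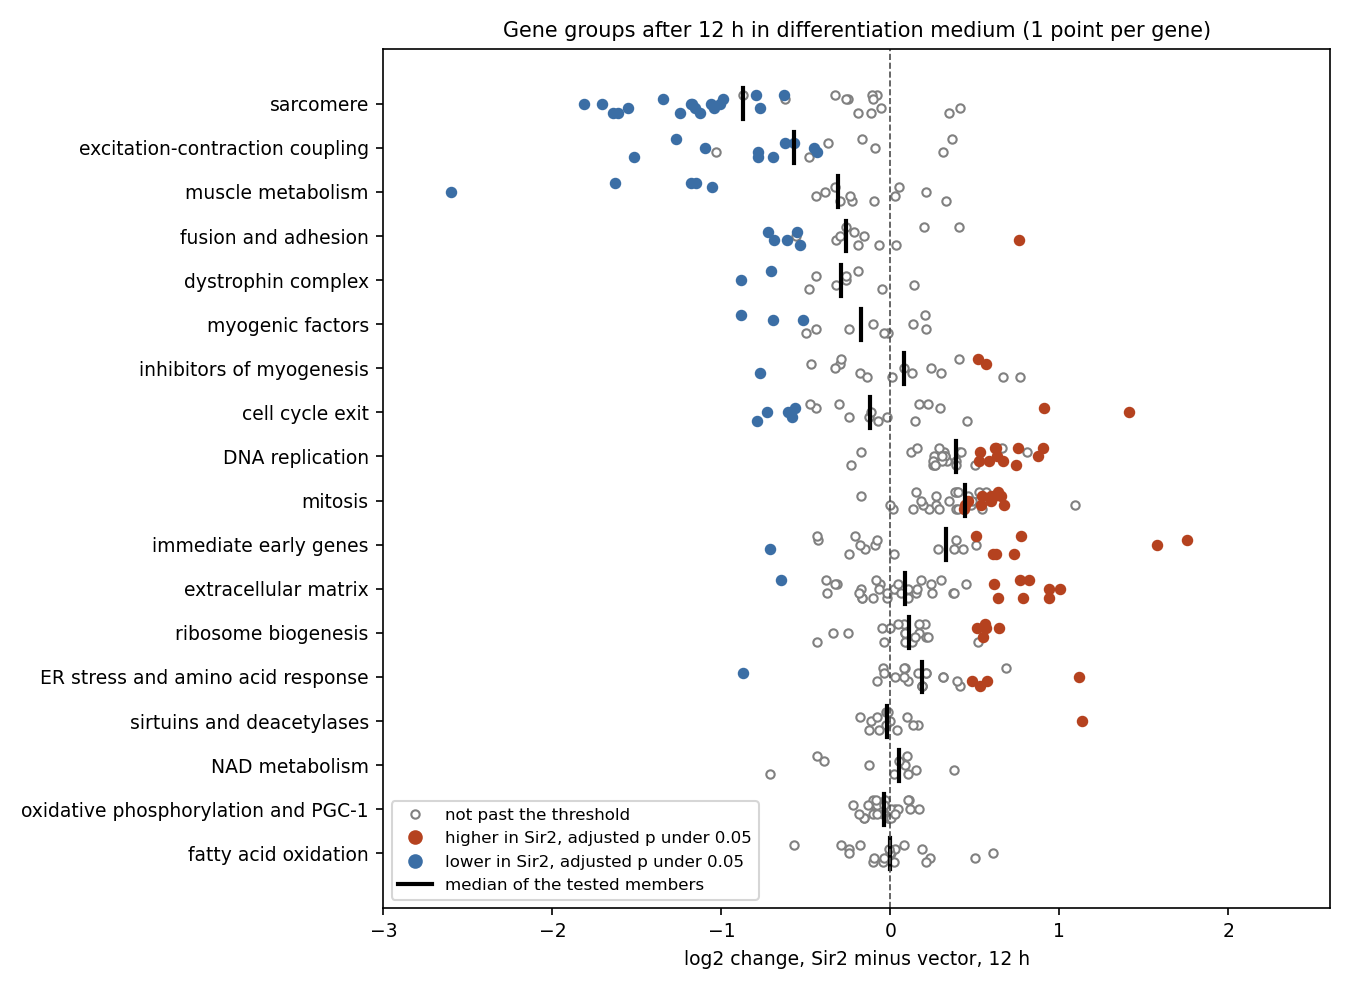
Log2 change at 12 h, Sir2 minus vector (x axis), of every tested member of 18 gene lists (rows), with filled points for genes past the threshold and a black bar at the median of the list. Filled sarcomere points all lie left of 0 (18 lower), and filled DNA replication and mitosis points all lie right of 0 (11 higher in each).

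Among probe sets with a single gene name the greatest rise was that of Hmga2, a chromatin protein of embryonic and proliferating cells. It had 287, 294 and 367 in Sir2 cells and 51.4, 44 and 45.7 in vector cells, a log2 change of 2.53 ± 0.24 (adjusted p = 8.43e-05). Dusp6, a phosphatase induced by and acting on ERK, had 125, 136 and 152 in Sir2 cells and 41.2, 30.1 and 32.6 in vector cells (1.75 ± 0.15, adjusted p = 2.75e-05). Groups without overlap were a condition for naming these genes by the size of their change, and so for all others named that way, above and below. Fosl1, a subunit of the AP-1 transcription factor, stood at 209, 220 and 178 in Sir2 cells and 51.9, 63.7 and 70.5 in vector cells (1.58 ± 0.38, adjusted p = 0.034). Its call was lost without any 1 of the 6 arrays (adjusted p of 0.0628 to 0.106). In the list of immediate early genes 7 of 22 tested were higher and 1, Zfp36l1, was lower (median 0.33). The higher ones were Dusp6, Fosl1, Egr1 (0.78), Egr2 (0.61 ± 0.13), Klf4 (0.63 ± 0.11), Ier2 and Ier3. The Egr2 call was lost with trend and robust variance (adjusted p = 0.0613), with the 6 arrays of 12 h (0.0614), without Sir2 replicate 1 or 2 or vector replicate 1 (0.0634 to 0.0669) and without Sir2 replicate 3 and vector replicate 2 together (0.0598). The Ier3 call was lost without Sir2 replicate 2 (adjusted p = 0.0511) or vector replicate 3 (0.0537), and the Klf4 call with the 6 arrays of 12 h (0.0524).

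Several of the other strongly higher genes encode surface and signalling proteins. Eps8, an adaptor of receptor tyrosine kinases, had 201, 171 and 222 in Sir2 cells and 67.2, 74.5 and 47.9 in vector cells (1.53 ± 0.19, adjusted p = 0.000579). Sema7a, a membrane-anchored semaphorin, had 181, 179 and 148 in Sir2 cells and 40.6, 43.4 and 73.1 in vector cells (1.58 ± 0.18, adjusted p = 0.000365), and its other probe set had 0.45 (adjusted p = 0.205). Aqp1, a water channel, had 253, 290 and 239 in Sir2 cells and 87.8, 95 and 94.9 in vector cells (1.41 ± 0.16, adjusted p = 0.000436). F3 (tissue factor, 1.45 ± 0.25), Nefl (neurofilament light chain, 1.47 ± 0.14), Alcam (a cell adhesion molecule, 1.30 ± 0.16), Il1r1 (interleukin 1 receptor, 1.30 ± 0.26) and Mcpt8 (a mast cell protease, 1.36 ± 0.18) were higher as well, the Il1r1 call being lost without vector replicate 3 (adjusted p = 0.0591). Prkg2 (a cGMP-dependent kinase, 1.56 ± 0.34) and B3gnt2 (a glycosyltransferase, 1.50 ± 0.38) passed but lost the call under several alternatives. Mcpt8, Alcam, Prkg2 and F3 were dim, with means of 31.2, 35.1, 35.6 and 36.4 over the 12 arrays, near the filter of 31.1. Their place among the tested genes may rest on the arrays where they were high. The Prkg2 call was lost without Sir2 replicate 2 (adjusted p = 0.0812) or vector replicate 2 or 3 (0.0665 and 0.0661). The B3gnt2 call was lost without Sir2 replicate 1, 2 or 3 (adjusted p = 0.0926, 0.106 and 0.0984) and without vector replicate 2 or 3 (0.123 and 0.145). The second B3gnt2 probe set had 0.25 (adjusted p = 0.527). Nefl was the 1 called gene of 6 tested neuron markers, and all 6 had a positive log2 change (median 0.16). Tubb3 overlapped between the groups at 1516 to 1922 in Sir2 cells and 1623 to 1730 in vector cells. The summed neuron marker intensity was 2219 to 2652 in Sir2 cells and 2191 to 2254 in vector cells.

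Outside the lists of muscle structure, the strongly lower genes included regulators of growth and hormone action. Dio2, the deiodinase that activates thyroid hormone, had 57.5, 58.2 and 59.6 in Sir2 cells and 208, 212 and 255 in vector cells (-1.79 ± 0.11, adjusted p = 4.33e-06). Fst, follistatin, which binds myostatin and activin, had 4.76, 25.1 and 18.3 in Sir2 cells and 65.2, 65.4 and 70.3 in vector cells (-1.71 ± 0.26, adjusted p = 0.00273), and its change was -2.12 and -1.09 with the constant at the 5th and 40th percentile. Fst was the 1 called gene of 25 tested in the TGF-beta family list. Erbb3, a neuregulin receptor, had 101, 134 and 150 in Sir2 cells and 432, 400 and 305 in vector cells (-1.50 ± 0.19, adjusted p = 0.000741). Adgrg1 (an adhesion G protein-coupled receptor, -1.57 ± 0.13), Ppfia4 (a liprin, -1.75 ± 0.21) and Srpk3 (a muscle kinase of splicing factors, -1.53 ± 0.14) were lower too. In the insulin-like growth factor axis 2 of 13 tested genes were lower, the growth factor gene Igf2 (134, 91.6 and 167 in Sir2 cells against 218, 239 and 322 in vector cells, -0.96 ± 0.19, adjusted p = 0.0112) and Akt2 (-0.65 ± 0.11), a kinase downstream of its receptor, and none was higher. The Igf2 call was lost without vector replicate 3 (adjusted p = 0.0527). Another probe set of Igfbp3, a member of the same axis, passed as lower (-0.55, adjusted p = 0.0198).

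In the extracellular matrix list 8 of 38 tested genes were higher and 1 was lower (median 0.09). Mgp, matrix Gla protein, had 1036, 1193 and 918 in Sir2 cells and 538, 470 and 623 in vector cells (0.94 ± 0.15, adjusted p = 0.0035). Thbs2 (thrombospondin 2) had 73, 76.1 and 78.3 in Sir2 cells and 26.1, 38.1 and 37.2 in vector cells (1.001 ± 0.16, adjusted p = 0.0035). The groups were apart in both. Mfap4, Col8a1, Nid1, Dcn, Timp1 and Timp3 were the other higher members, and Ogn was the lower one. Of 26 tested genes of the ER stress and amino acid response 4 were higher, among them Trib3 (1.12 ± 0.25), Asns (0.53 ± 0.11) and Atf3 (0.57 ± 0.11), while Herpud1, of ER-associated degradation, was lower (-0.87 ± 0.12). Without vector replicate 3 the calls of Trib3, Asns and Atf3 were lost (adjusted p of 0.0696, 0.0571 and 0.0557), and without Sir2 replicate 1 those of Trib3 and Asns (0.0855 and 0.0634). The Asns call was also lost without Sir2 replicate 2 (0.0531). Second probe sets had 0.30 for Atf3 (adjusted p = 0.562) and 0.54 for Asns (adjusted p = 0.16), with no call. Of 26 tested genes of ribosome biogenesis 5 were higher and none was lower, Nop58 and Nop10 among them. Of 20 tested genes of sterol and lipid synthesis 2 were lower (Mvd at -0.69 ± 0.11 and Nsdhl at -0.46 ± 0.10), and 17 of the 20 had a negative log2 change (median -0.18). The Nsdhl call was lost without Sir2 replicate 1 or 2 or vector replicate 1 or 2 (adjusted p of 0.0502 to 0.0872), the Nop10 call without those or vector replicate 3 (0.0521 to 0.125), and the Nop58 call without vector replicate 3 (0.0551).

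The remaining lists were small and held at most 2 calls each, beside 3.02% higher and 2.97% lower over all genes tested. As shares, 25% of the NF-kB targets were higher and 12.5% of the interferon and antigen presentation genes were lower. Of 17 tested p53 targets 1 was higher (Pcna) and 1 lower (Cdkn1a), of 13 FOXO targets 1 was lower (Bcl6), and of 8 NF-kB targets 2 were higher (Vcam1 and Csf1). Of 18 heat shock genes 1 was lower (Hspb8), of 24 oxidative stress genes none passed in either direction, and of 16 genes of interferon and antigen presentation 2 were lower (Tap2 and Igtp). These counts use 1 probe set per gene. Another probe set passed as higher for Nqo1 of oxidative stress (0.75, adjusted p = 0.0266) and for H2-D1 of antigen presentation (0.51, 0.0111). Another passed as lower for Hspb2 of heat shock (-0.89, 0.0479) and for Bcl2l11 of the FOXO targets (-0.70, 0.049). Of 8 tested smooth muscle markers 1 was lower, Acta2, with 1135, 1090 and 1593 in Sir2 cells and 2052, 2040 and 1643 in vector cells (-0.60 ± 0.15, adjusted p = 0.0369), a call lost without Sir2 replicate 1 or 2 or vector replicate 1 or 2 (0.105 to 0.135). Smooth muscle actin is also made by myoblasts, and the summed smooth muscle marker intensity was 5165 to 5444 in Sir2 cells and 4856 to 5478 in vector cells. Of 7 tested adipocyte markers 1 was higher, Plin2, which coats lipid droplets, at 913, 867 and 889 in Sir2 cells and 619, 569 and 551 in vector cells (0.61 ± 0.09, adjusted p = 0.00243). Among the tested leukocyte (4), bone and cartilage (1) and endothelium (1) markers there was no call.

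The same Sir2 and vector cells at 36 h came from other arrays and gave 343 of 5621 genes higher (6.1%) and 195 lower (3.47%). The effect at 12 h differed from that at 36 h, by the test of the difference itself, for 103 genes (1.83%), of which 30 were among the lower and 21 among the higher genes of 12 h. Counted as probe sets these differences were 131, against 57 with a replicate block and 28 without Sir2 replicate 3 and vector replicate 2 of 12 h. The sarcomere list had 18 lower members at 12 h and 18 at 36 h, with medians of -0.87 and -0.55, and 8 of its members had a called difference. Acta1 had a log2 change of -1.64 ± 0.10 at 12 h and -0.39 ± 0.10 at 36 h (difference -1.25 ± 0.15, adjusted p = 0.00254). Pgam2 had -2.60 ± 0.11 at 12 h and -0.79 ± 0.11 at 36 h (difference -1.81 ± 0.15, adjusted p = 0.00037). Both effects were larger at the earlier time, although the Pgam2 difference was -2.65 with the constant at the 5th percentile and -0.81 with it at the 40th. Myh3 and Myh1 had differences of -0.37 ± 0.15 (adjusted p = 0.256) and -0.35 ± 0.23 (adjusted p = 0.509), which did not pass.

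**Figure D4:**
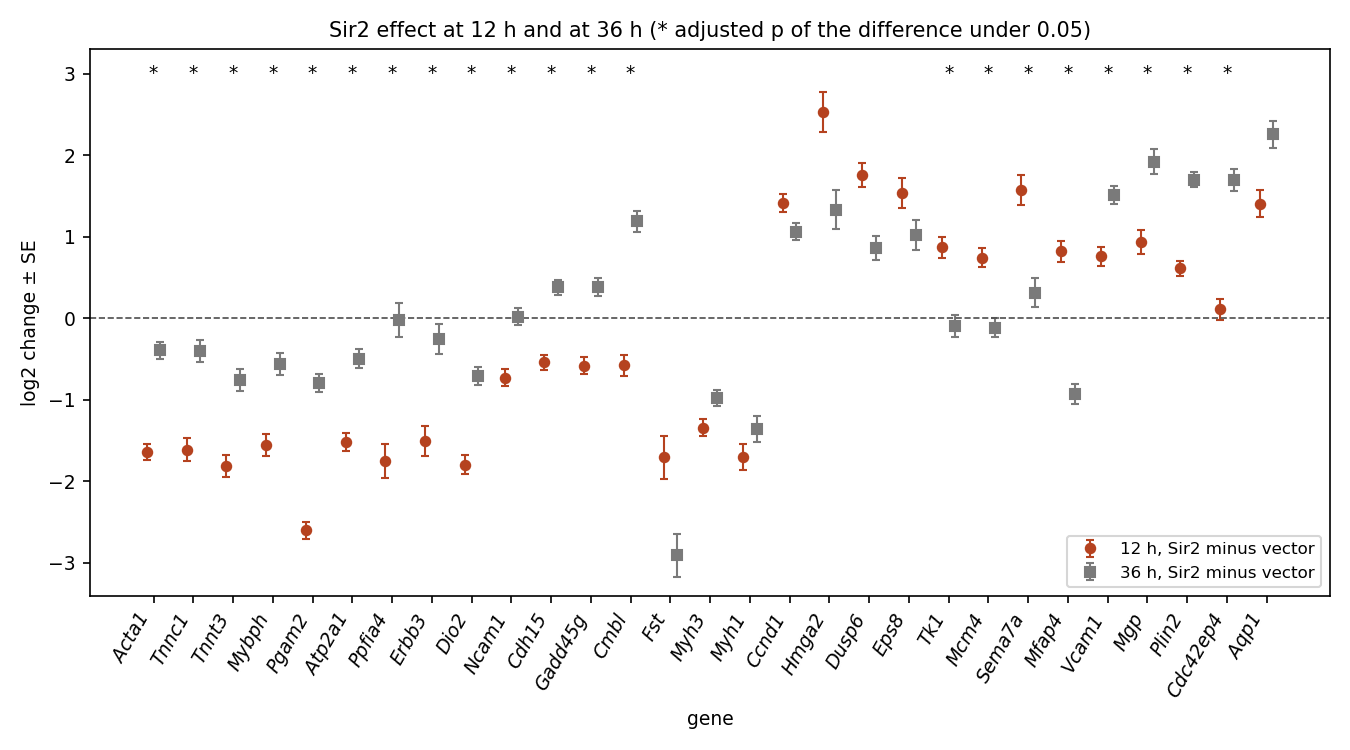
Log2 change, Sir2 minus vector, with SE (y axis) for 29 genes (x axis) at 12 h (red circles) and 36 h (grey squares), and an asterisk where the adjusted p of the difference was under 0.05. Pgam2 lies at -2.60 at 12 h and -0.79 at 36 h, and Cmbl lies below 0 at 12 h (-0.58) and above 0 at 36 h (1.19).

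Part of the replication genes had a called difference between the times, 7 of the 35 tested. The list had 11 higher members and a median of 0.39 at 12 h, none higher and 2 lower with a median of -0.01 at 36 h. Tk1 had 0.87 ± 0.13 at 12 h and -0.09 ± 0.13 at 36 h (difference 0.97 ± 0.18, adjusted p = 0.0262). The mitosis list had 11 higher members and a median of 0.44 at 12 h, 6 higher members and a median of 0.23 at 36 h, and no member with a called difference. Ccnd1 had 1.41 ± 0.11 at 12 h and 1.06 ± 0.11 at 36 h, a difference that did not pass (adjusted p = 0.286). The effect had opposite signs at the 2 times for Mfap4, a microfibril protein, at 0.82 ± 0.12 at 12 h and -0.93 ± 0.12 at 36 h (difference 1.75 ± 0.18, adjusted p = 0.0013), and for Cmbl, a hydrolase, at -0.58 ± 0.13 at 12 h and 1.19 ± 0.13 at 36 h (difference -1.77 ± 0.18, adjusted p = 0.0013). The 12 h call of Cmbl was lost without Sir2 replicate 1 or 2 or vector replicate 1 or 3 (adjusted p of 0.0735 to 0.0812). Plin2 had 0.61 ± 0.09 at 12 h and 1.70 ± 0.09 at 36 h (difference -1.09 ± 0.13, adjusted p = 0.00304).

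Between 12 and 36 h vector cells changed widely, with 717 genes higher (12.8%) and 1147 lower (20.4%) at 36 h. This comparison shares the vector arrays of 12 h with the Sir2 comparison, so values are given side by side only. In the sarcomere list 26 members were higher and 2 lower at 36 h in vector cells (median 2.07), beside 18 lower in Sir2 cells at 12 h. In the DNA replication list 29 members were lower at 36 h in vector cells, and in the mitosis list 36 were, beside 11 higher in each in Sir2 cells at 12 h. Acta1 had 2.10 between the times in vector cells and -1.64 for Sir2 at 12 h. Ccnd1 had -1.003 between the times and 1.41 for Sir2 at 12 h. Dusp6 had 0.39 between the times (adjusted p = 0.063) and 1.75 for Sir2 at 12 h. Cd82 had -0.00 between the times (adjusted p = 0.99) and -0.55 for Sir2 at 12 h. Asns had 2.51 between the times and 0.53 for Sir2 at 12 h.

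Independent arrays of control C2C12 cells in the other arm place a few of these genes in the course of differentiation. There were 2 arrays per time, on another intensity scale, so that levels are not set against those above. Acta1 was at 286 and 463 at 12 h, 6566 and 5825 at 24 h, and 19919 and 20049 at 48 h. Ccnd1 was at 2572 and 2396 at 0 h, 3911 and 3547 at 4 h, 3499 and 3156 at 12 h, 1111 and 1334 at 24 h, and 642 and 288 at 48 h. Hmga2 was at 2935 and 2962 at 0 h, 4270 and 4524 at 4 h, 2304 and 2357 at 12 h, 376 and 303 at 24 h, and 237 and 236 at 48 h. In these control cells Acta1 was at its highest at the last time, and Ccnd1 and Hmga2 were both lower from 24 h on. Some other genes that were higher in Sir2 cells ended this course above where they began. Klf4 was at 588 and 561 at 0 h, 171 and 245 at 4 h, 305 and 211 at 12 h, 1752 and 1895 at 24 h, and 2649 and 1753 at 48 h. At 12 h, the time of the Sir2 comparison, Klf4 was thus below its start. Plin2 was at 7142 and 6959 at 0 h, 5117 and 5781 at 4 h, 7076 and 7580 at 12 h, and 13323 and 16524 at 48 h. Pgam2, strongly lower in Sir2 cells, had negative values here at 48 h (-144 and -192), so these arrays cannot place it.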

How the data were processed

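The 32 arrays of the series share 1 Affymetrix design. The deposited value for a probe set on an array is an intensity, computed in the Sir2 arm with MAS5 per the submitters' processing notes, with no version given. No present or absent calls were used. The array has 12488 probe sets, from which 66 controls were removed. Of the other 12422, 10833 had 1 gene symbol in the platform annotation, 396 several and 1193 none, and 10817 symbols were updated through Entrez identifiers, which gave 8251 genes. A gene was represented by the probe set with the highest mean.

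Values were log2(intensity + 8.82), the constant being the 20th percentile of the arm, with no further normalization. The 7453 probe sets with a mean over the 12 Sir2 and vector arrays of at least 31.1 (the 40th percentile of the means) were fitted with limma 3.58.1 in R 4.3.3 (lmFit and eBayes, 1 mean per treatment and time, 8 residual and 3.93 prior degrees of freedom), with Benjamini-Hochberg adjustment over all of them and a threshold of 0.05. The fit was also run on simulated data with changes of known size. That outcome is not given here, so it lends no support to the results above. Array measures were compared by exact two-sided permutation. Figures were drawn with matplotlib 3.10.9 under Python 3.11.15. The number of arrays, 3 per group, limits precision.

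The rule for named genes took Sirt1, a set of muscle and cell cycle regulators, up to 14 called genes per direction with the largest change and no overlap, up to 4 members of smallest p of each of 34 lists (882 genes), and 6 genes of smallest p for the difference between the times (a part of them is printed). Other list members are named as members called. The comparison, the lists and the rule were chosen with earlier results of these data known. Alternatives were quantile normalization, median centring, other constants and filters, trend and robust variance, a replicate block, the 6 arrays of 12 h alone, and each array left out. The replicate letters were tested for pairing: deviations of same-lettered arrays correlated at 0.00274, -0.264 and -0.314 at 12 h and at 0.116, 0.0499 and 0.108 at 36 h, not all above 0.1, so the letters were not taken as pairs. The title of the vector array behind the value of -0.264 carries the mark bb, which was read as b.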

Additional observations from a re-analysis of the deposited data

Results flagged for a closer look

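The genes given here had a Sir2 effect at 12 h that differed from that at 36 h in the fit's own test of the difference (limma, adjusted p under 0.05). Values are the log2 effect at 12 h minus that at 36 h. Among genes lower at 12 h the differences were -1.25 for Acta1, -0.71 for Actc1, -1.21 for Tnnc1, -1.06 for Tnnt3, -0.995 for Mybph, -1.81 for Pgam2 and -1.02 for Atp2a1, all of muscle contraction or energy supply. They were -0.75 for Ncam1, -0.92 for Cdh15, -1.09 for Dio2, -1.73 for Ppfia4, -0.88 for Srpk3, -1.25 for Erbb3 and -0.96 for Gadd45g. Among genes higher at 12 h the effect was larger there for Tk1 (0.97), Mcm4 (0.86), Sema7a (1.26) and Asns (0.73). For Ncam1, Cdh15, Gadd45g, Tk1, Mcm4 and Asns the difference exceeded the 12 h effect. Their estimated effect at 36 h thus had the other sign, and whether it passed there is not given here. Mfap4 was higher at 12 h and lower at 36 h (1.75), and Cmbl was lower at 12 h and higher at 36 h (-1.77). The effect was larger at 36 h for Vcam1 (-0.75), Mgp (-0.98) and Plin2 (-1.09). Cdc42ep4, a Cdc42 effector, had no call at 12 h (79.5, 80.2 and 95.7 in Sir2 cells, 81, 79.5 and 73.6 in vector cells) and a difference of -1.59.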

How the results depend on the processing

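The count of 414 probe sets (207 higher, 207 lower) moved to 243 (116 and 127) with no filter, 208 (106 and 102) with the 6 arrays of 12 h alone, and 246 (118 and 128) without Sir2 replicate 3 and vector replicate 2, an alternative chosen after seeing the data. Leaving out 1 array gave 215 to 331 (98 to 160 higher, 117 to 181 lower). With the replicate block it was 315 (159 and 156), and with quantile normalization 401 (187 and 214). The difference between the times, 131 probe sets, moved to 46 with no filter, 207 with trend and robust variance, 57 with the replicate block and 28 without that pair of arrays, and ran from 45 to 113 with 1 array left out. The list counts under alternatives were added after seeing the data. Mitosis, 11 genes, moved to 4 with no filter, 17 with a filter at the 60th percentile, 2 with the 6 arrays and 2 without the pair, and 2 to 9 with 1 array left out. DNA replication, 11 genes, moved to 4 with the 6 arrays, 6 without the pair and 4 to 10 with 1 array left out. Excitation-contraction coupling, 10 genes, moved to 5 with the 6 arrays and 6 to 9 with 1 array left out. The sarcomere count ran from 16 to 19 with 1 array left out. Signs turned for 5 genes near 0 or with a second probe set: Des (0.0194 without Sir2 replicate 2, with a range of -0.152 to 0.0194 as 1 array was left out), Mylpf (0.0142 without Sir2 replicate 3, range -0.414 to 0.0142), Kat2b (0.00012 without vector replicate 2, range -0.172 to 0.00012, and 0.0088 without the pair), Cdkn1a (0.11 on its other probe set) and Zeb1 (0.20 on its other probe set). Of 82 called genes among the 92 followed, 51 passed wherever the probe set used for the gene was tested. Of these, 40 were tested under every alternative and 11 were below a filter of at least 1 alternative. Second probe sets did not enter this count. It includes Cdkn1a and Zeb1, whose signs turned on the other probe set, and Mef2a, Cd82, Gadd45b, Ncam1 and Sema7a, whose other probe sets did not pass. The losses printed beside single genes above are only a part of those found. With the 6 arrays alone the calls of Igf2 (adjusted p = 0.0775), Snai2 (0.0764), Trib3 (0.0759) and Atf3 (0.0668) were lost too. Without the pair those of Sgca (0.0591) and Atf3 (0.1095) were lost. The added constant, at the 5th or 40th percentile in place of the 20th, moved the log2 change of 11 called genes by over 1.5 times with no call lost: Sirt1, Myh1, Pgam2, Mb, Ckm, Ppfia4, Fst, Srpk3, Prkg2, Mfap4 and Trib3. The cause of these moves was not tested. Dim probe sets limit what can be detected, since no detection calls were used.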

Other observations

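The platform annotation lists more than 1 gene for 396 probe sets, so that these could not be given a gene name. How many of them were tested was not counted, and over all probe sets tested 5.55% passed at 12 h. Called probe sets with no gene symbol are left out here. Of the 396 probe sets 10 passed at 12 h, 7 higher and 3 lower in Sir2 cells. The one with the largest change had 500.5, 462 and 563 in Sir2 cells and 68.1, 66.8 and 47.3 in vector cells, with a log2 change of 2.91 ± 0.20 (SE, adjusted p = 7.47e-06, limma), above that of Hmga2. The next had 781, 800 and 867 in Sir2 cells and 171, 181 and 167 in vector cells (2.18 ± 0.24). For both, every Sir2 array was above every vector array.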
